A study of Mus musculus with 12 samples.

Results

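*Gcg* and 8 genes of the peptide-hormone pathway were followed in the lenses of mice with an altered *Trpm3* gene, which encodes a cation channel. The 9 genes, out of 55487 gene identifiers in the count table, were *Gcg* (the glucagon precursor), *Pcsk1*, *Pcsk2*, *Cpe*, *Scg5*, *Scg2*, *Scg3*, *Chga* and *Chgb*. They were matched by symbol, and all 9 were found. *Gcg* was chosen by its measured level, which is lower than wild-type in all 3 altered genotypes, so its values against wild-type lenses are given as a description without a test. The others were listed for their part in prohormone processing and the secretory granule.

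RNA was sequenced from lenses at postnatal day 7 (P7) in 12 libraries, 3 for each of 4 genotypes (wild-type, *Trpm3*-KO and the knock-in mutants *Trpm3*-I/M and *Trpm3*-M/M), all on a C57BL/6J background. *Trpm3*-KO mice carried a targeted allele made by homologous recombination, in which a reporter and selection cassette interrupts *Trpm3*. The mutants, heterozygous in *Trpm3*-I/M and homozygous in *Trpm3*-M/M, carried a CRISPR/Cas9 knock-in that replaces an isoleucine of the channel with methionine. No agent was given, and each library was pooled from 4 male and 4 female lenses. Both mutants were in early cataract development at this age, whereas *Trpm3*-KO and wild-type lenses were not cataractous. The study asked how the substitution and the absence of the channel each alter lens gene expression. The labels number the libraries 1 to 3 within a genotype without naming litters, so p-values measure the spread between these pooled libraries. The 3 altered genotypes are called KO, I/M and M/M in what follows.

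Peptide hormones are made as long precursors that enter the secretory pathway and are cut at pairs of basic residues. The prohormone convertases *Pcsk1* and *Pcsk2* make the cuts, carboxypeptidase E (*Cpe*) trims the exposed basic residues, and the *Scg5* product, also known as 7B2, is a chaperone that the *Pcsk2* enzyme needs to mature. Chromogranins and secretogranins (*Chga*, *Chgb*, *Scg2*, *Scg3*) are acidic proteins that help to pack the dense-core granule. In pancreatic alpha cells *Pcsk2* releases glucagon from the *Gcg* product, and in intestinal L cells *Pcsk1* releases the glucagon-like peptides from the same precursor. The lens holds an anterior epithelium and crystallin-filled fiber cells and is not a known endocrine organ.

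The stretch of the *Gcg* coding sequence that specifies glucagon is shown because it carries the cut sites on which these enzymes act. It lies at chr2:62478560-62478658 on the minus strand of GRCm38, in exon 3 of the 6 exons of the transcript Gcg-201. The capitals mark the codons of the lysine and arginine pairs on either side of the hormone.
*Gcg* coding stretch: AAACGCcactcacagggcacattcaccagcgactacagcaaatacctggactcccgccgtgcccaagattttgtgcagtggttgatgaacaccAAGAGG

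The promoters of 8 of the 9 genes were found in the RefSeq table (GRCm38.p6), and that of *Cpe* was not. The 150 bases before the start are shown for *Gcg* and *Scg5*, which were lowest in M/M lenses, for *Scg2*, which was highest there, and for *Pcsk1* and *Chgb*, which share a motif with *Scg2*. The capitals mark TATAAA (the TATA box, searched on the gene strand) and TGACGTCA (the cyclic AMP response element, whose letters read alike on both strands).
*Gcg*, chr2:62483654-62483803, minus strand: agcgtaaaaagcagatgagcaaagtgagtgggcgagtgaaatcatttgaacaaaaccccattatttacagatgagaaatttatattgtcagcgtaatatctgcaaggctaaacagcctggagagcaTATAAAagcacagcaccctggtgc
*Scg5*, chr2:113829092-113829241, minus strand: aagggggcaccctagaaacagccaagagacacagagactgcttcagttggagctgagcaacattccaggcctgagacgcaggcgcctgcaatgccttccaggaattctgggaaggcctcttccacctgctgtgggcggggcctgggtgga
*Scg2*, chr1:79440027-79440176, minus strand: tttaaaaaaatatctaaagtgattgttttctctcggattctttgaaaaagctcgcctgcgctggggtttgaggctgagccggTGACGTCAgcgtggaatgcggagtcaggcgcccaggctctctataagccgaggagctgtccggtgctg
*Pcsk1*, chr13:75089707-75089856, plus strand: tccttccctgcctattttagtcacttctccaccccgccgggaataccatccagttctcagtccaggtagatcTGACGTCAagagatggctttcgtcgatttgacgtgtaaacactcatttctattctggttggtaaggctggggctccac
*Chgb*, chr2:132781492-132781641, plus strand: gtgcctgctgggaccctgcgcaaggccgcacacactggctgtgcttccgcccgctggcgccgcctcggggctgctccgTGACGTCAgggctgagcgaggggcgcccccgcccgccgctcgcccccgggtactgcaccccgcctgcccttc
TATAAA began 24 bases before the *Gcg* start and was in none of the other 7 windows of 250 bases, while 7.59% of 32851 such windows in the genome held it. TGACGTCA began 68 bases before the start of *Scg2*, 72 before that of *Chgb* and 78 before that of *Pcsk1*, and 1.55% of all windows held it. Of the 3 genes that share it, *Scg2* was the one with over 100 counts in any library (see its values under the granins). Another run of letters, TGCTGA, which is part of the sites bound by Maf factors, was searched on both strands. It was found once among the 8 windows, 244 bases before the start of *Scg2*, and in 16.1% of all windows. The motifs do not overlap each other. A match is a description of the letters and not of binding.

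The libraries held 56162182 to 82090262 counts each. *Trpm3* itself followed the labels in KO lenses, at 89.9, 99.7 and 96.3 CPM (counts scaled to a depth shared by all libraries, with TMM factors) against 270, 251 and 285 in wild-type lenses. It was higher than wild-type in I/M (370, 413 and 376 CPM) and M/M lenses (473, 469 and 484 CPM). Crystallin genes took 61.0 to 63.9% of the counts in wild-type and 49.4 to 51.3% in M/M libraries. The 7 lens fiber markers summed to 194461 to 211442 CPM in wild-type and 130922 to 137899 CPM in M/M libraries, with none at 0. One library went against its description. The female-expressed *Xist* had 5 counts (0.0721 CPM) in I/M replicate 3 and 45.8 to 305 CPM in the other 11, and the Y-linked *Ddx3y* was highest there at 27.2 CPM, which goes against a pool of male and female lenses. Some differences that rest on the I/M group, mainly those of members, are therefore also given without it. Unless so marked, I/M values, list counts and medians include this library.

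Per kilobase of exon, *Gcg* and *Cpe* were the abundant members. In wild-type lenses *Cpe* had 47.0 ± 3.86 CPM per kb (SD, n = 3) and *Gcg* 42.6 ± 19.5 CPM per kb, which did not differ beyond their spread. *Scg5* followed with 2.00 ± 0.218 CPM per kb. The other 6 genes were at or below 0.055 CPM per kb on average in wild-type lenses. The prohormone that the lens RNA held at a high level was thus accompanied by *Cpe* and, far lower, by *Scg5*, with the convertases *Pcsk1* and *Pcsk2* near the limit of detection.

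**Figure D1:**
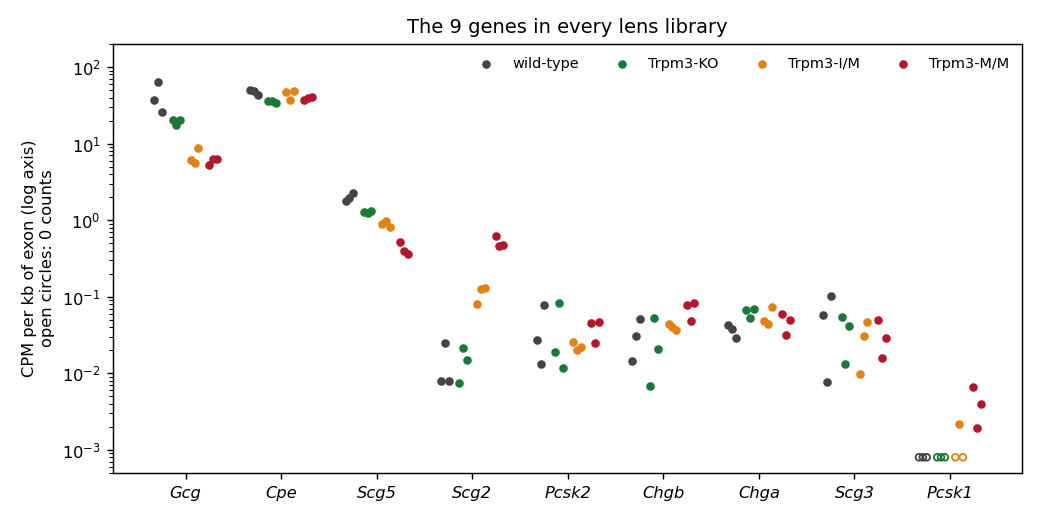
CPM per kilobase of exon (log axis) of the 9 genes in each of the 12 lens libraries, 1 point per library, coloured by genotype, with libraries at 0 counts drawn as open circles at the foot. *Gcg* and *Cpe* lie highest, *Scg5* steps down from wild-type to M/M, *Scg2* steps up in I/M and M/M, and *Pcsk1* has 0 counts in 8 libraries.

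*Gcg* (ENSMUSG00000000394, chr2:62474530-62483650 of GRCm38, minus strand) was highest in wild-type lenses, lower in KO lenses, and lowest in the mutants. It had 56.3, 95.9 and 39.0 CPM in the wild-type libraries, from 2862, 4564 and 1965 counts. The KO libraries had 30.1, 26.4 and 30.4 CPM, all below the lowest wild-type library. The I/M libraries had 9.09, 8.31 and 12.9 CPM. The M/M libraries had 7.74, 9.54 and 9.42 CPM, within the range of I/M apart from the lowest. No library of either mutant genotype overlapped KO or wild-type lenses. The wild-type libraries were the most uneven, with an SD that was 45.8% of the mean, against 7.8% in KO, 24.3% in I/M and 11.3% in M/M lenses.

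As a description, the wild-type mean of 63.7 ± 29.2 CPM (SD, n = 3) was 2.2 times the KO mean (28.97 ± 2.26 CPM), 6.31 times the I/M mean (10.1 ± 2.46 CPM) and 7.16 times the M/M mean (8.90 ± 1.01 CPM). Without wild-type replicate 2, the highest library, these ratios were 1.64, 4.71 and 5.35. Across all 8984 genes tested, 0.568% were called in KO, 3.33% in I/M and 8.95% in M/M lenses against wild-type, a call being a fold change (FC) of at least 2 with a false-discovery rate (FDR) of at most 0.05. In bulk lens RNA, fewer cells that express a gene and less of its RNA per cell cannot be told apart.

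The differences among the 3 altered genotypes did not enter the choice of *Gcg* and were tested. *Gcg* was 2.88-fold lower in I/M than in KO lenses (log2 FC of -1.52 ± 0.26 SE, edgeR quasi-likelihood FDR = 0.00058) and 3.25-fold lower in M/M than in KO lenses (-1.70 ± 0.26, FDR = 8.2e-05). Of all genes tested, 3.94% and 9.78% were called in these comparisons, respectively. Between M/M and I/M lenses the log2 difference was -0.18, with a 95% interval of -0.76 to 0.41 (FDR = 0.61), and 4.7% of genes were called. That interval leaves room for a difference in either direction below 2-fold. Without I/M replicate 3 the difference from KO was -1.74 and that between the mutants 0.04 on the log2 scale.

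The spread of *Gcg* ran beside the sex-linked RNA in some libraries. Wild-type replicate 2, with the highest *Gcg*, had the lowest *Xist* of its group at 45.8 CPM, against 210 and 162 CPM. The Y-linked *Ddx3y*, *Eif2s3y*, *Kdm5d* and *Uty* were each the highest of the wild-type group there, at 21.1, 18.1, 7.10 and 4.31 CPM. The next highest wild-type values were 15.6, 11.8, 3.93 and 2.77 CPM. I/M replicate 3, with the highest *Gcg* of its group, had the lowest *Xist* and the highest level of each of these Y-linked genes. KO replicate 2, with the lowest *Gcg*, had the highest *Xist* at 305 CPM. Its Y-linked RNA did not mirror this. *Ddx3y* (16.3 CPM) and *Eif2s3y* were also the highest of the KO group there, whereas *Uty* (2.15 CPM) was the lowest and *Kdm5d* lay between. These Y-linked genes were named after their values were seen. In M/M lenses the lowest *Gcg* and the lowest *Xist* (92.1 CPM) were in the same library, replicate 1. The part of the sex mix in the *Gcg* level was not tested. The summed level of 5 lens epithelium markers was 329 to 356 CPM in wild-type and 300 to 315 in KO lenses. It was 287 to 318 CPM in I/M lenses, which overlapped KO, and 227 to 251 in M/M lenses. None of the 5 was at 0. *Npnt* went up, from 94.0 CPM on average in wild-type to 125 in M/M lenses, while the other 4 summed to 245 and 113 CPM. The part of these markers in the *Gcg* level was likewise not tested.

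**Figure D2:**
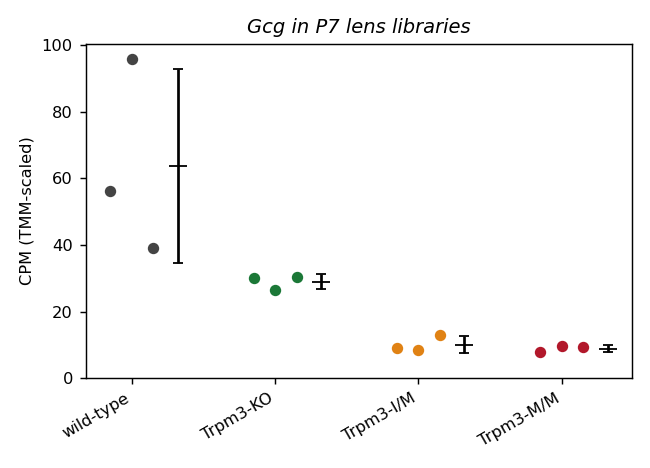
*Gcg* in CPM (TMM-scaled) in each of the 3 libraries per genotype (points), with the mean ± SD beside them (bars). The wild-type points spread from 39.0 to 95.9 CPM, the KO points lie from 26.4 to 30.4 CPM and both mutant groups lie at or below 12.9 CPM.

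The genes whose log2 CPM followed that of *Gcg* most closely over the 12 libraries, out of 8983 others, were *Tbc1d30* (Pearson's r = 0.959), *Tox3* (0.957), *Habp4* (0.952), the ribosomal protein gene *Rps4x* (0.95) and the kinase gene *Brsk2* (0.95). All 5 had their highest mean in wild-type lenses and their lowest in M/M lenses. Their ranges differed, since *Tbc1d30* went from a mean of 12.5 to 3.44 CPM and *Rps4x* from 233 to 182 CPM. These correlations are across libraries that share genotype groups and scaling, and are given without a test.

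Of the cutting and trimming enzymes, *Cpe* was present throughout and changed little, whereas *Pcsk1* and *Pcsk2* were at trace levels. *Pcsk1* (ENSMUSG00000021587, chr13:75089826-75134861, plus strand) had 0 counts in all 3 wild-type and all 3 KO libraries. A library at 0 counts allows up to 3 counts, which is 0.0543 to 0.063 CPM at these depths and covers counting error only. It had 1 count in I/M replicate 2 and 3, 1 and 2 counts in the M/M libraries. No fold was computed, since both sides are at or under that limit.

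*Pcsk2* (ENSMUSG00000027419, chr2:143546156-143816285, plus strand) was present in all 12 libraries at low counts. It had 0.216, 0.105 and 0.614 CPM in wild-type lenses, 0.150, 0.651 and 0.0939 CPM in KO lenses, 0.202, 0.158 and 0.173 CPM in I/M lenses and 0.363, 0.195 and 0.372 CPM in M/M lenses. The genotypes overlapped, and single wild-type and KO libraries held most of their group's counts. Its exons overlap those of 2 antisense genes by 260 bases (*Pcsk2os1*, 0 to 3 counts) and 99 bases (*Pcsk2os2*, 0 to 12 counts). Whether the counting used the strand is not given in the sources used here, so reads from these stretches cannot be assigned to either strand.

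*Cpe* (ENSMUSG00000037852, chr8:64592542-64693054, minus strand) had 131, 126 and 111 CPM in wild-type lenses. The KO libraries had 93.7, 94.4 and 87.9 CPM and lay below every wild-type library. I/M libraries, at 122, 96.7 and 128 CPM, overlapped wild-type, and M/M libraries, at 97.8, 103 and 105 CPM, lay just below it. The log2 difference from wild-type was -0.42 ± 0.09 in KO (edgeR FDR = 0.017), -0.27 ± 0.09 in M/M (FDR = 0.019) and -0.09 ± 0.09 in I/M lenses (FDR = 0.49). *Cpe* was also higher in I/M than in KO lenses, by 0.33 ± 0.09 (FDR = 0.012). Without I/M replicate 3 this last difference was 0.25 (FDR = 0.056), and without KO replicate 3 it was 0.29 (FDR = 0.055). None of these reached an FC of 2, so *Cpe* was not called. The FDR went above 0.05 in the KO comparison on leaving out any of 5 libraries (KO replicate 1, 2 or 3, or wild-type replicate 1 or 2; 0.0534 to 0.0875) and in the M/M comparison on leaving out any of 4 (M/M or wild-type replicate 1 or 2; 0.0521 to 0.0894). Scaled by library size alone, the M/M difference turned to 0.24, in a scaling that moved the median of all genes by 0.50. Relative to that median it was -0.26.

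The patterns nearest to that of *Cpe* were those of *Bloc1s2* (r = 0.864), a subunit of complexes that sort cargo to lysosome-related organelles, and *Dynlt1c* (r = 0.840), a dynein light chain gene. *Dynlt1c* was at 11.2 CPM on average in wild-type, 6.03 in KO, 11.6 in I/M and 7.15 in M/M lenses.

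*Scg5*, the convertase chaperone, fell in both mutants, with a smaller difference in KO lenses. With *Scg2*, it passed a CPM of at least 1 in 3 or more libraries but not the CPM of at least 5 of the main fit, so both were fitted with 12638 genes at the lower filter. *Scg5* reached it in all 9 wild-type, KO and I/M libraries, and *Scg2* in the 3 M/M libraries alone. *Scg5* (ENSMUSG00000023236, chr2:113776362-113829121, minus strand) had 2.83, 3.09 and 3.51 CPM in wild-type lenses, from 144, 147 and 177 counts. It had 2.00, 1.95 and 2.07 CPM in KO lenses, 1.40, 1.53 and 1.27 CPM in I/M lenses and 0.813, 0.618 and 0.564 CPM in M/M lenses. No 2 genotypes overlapped, and the order from high to low was wild-type, KO, I/M and M/M.

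*Scg5* fell 2.24-fold in I/M lenses (log2 FC of -1.17 ± 0.14 SE, edgeR FDR = 2.7e-05) and 4.81-fold in M/M lenses (-2.27 ± 0.15, FDR = 2.1e-08). In KO lenses the difference was -0.65 ± 0.14 (FDR = 0.017), below the fold threshold, and its FDR went above 0.05 on leaving out wild-type replicate 3 (0.078) or KO replicate 1, 2 or 3 (0.063, 0.074 and 0.0598). M/M lenses were also lower than I/M lenses (log2 FC of -1.10 ± 0.16, FDR = 5.5e-05) and KO lenses (-1.62 ± 0.15, FDR = 6.7e-07). The difference of I/M from KO lenses was -0.52 ± 0.14 (FDR = 0.014), below the fold threshold, with an FDR of 0.062 by library size alone and 0.054 without I/M replicate 3. Of the 12638 genes, 0.815% were called in KO, 5.25% in I/M and 12.9% in M/M lenses against wild-type. In the same fit 7.98% were called between the mutants, 6.16% between I/M and KO, and 13.8% between M/M and KO. Without I/M replicate 3 the I/M difference from wild-type was -1.10. Without M/M replicate 3 the difference between the mutants was -0.98, under the fold threshold.

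Among the granins, *Scg2* rose in I/M lenses and had its highest counts in M/M lenses, while the other 3 stayed at trace counts. *Scg2* (secretogranin II, ENSMUSG00000050711, chr1:79434669-79440120, minus strand) had 1, 3 and 1 counts in wild-type libraries and 1, 3 and 2 in KO libraries. It had 15, 26 and 23 counts in I/M libraries (0.202, 0.316 and 0.332 CPM) and 125, 108 and 105 counts in M/M libraries (1.56, 1.17 and 1.18 CPM). The 3 groups of wild-type with KO, I/M and M/M did not overlap. Summed over libraries, the M/M level was 38.6 times that of wild-type, with a counting interval (95%, exact binomial) of 16.4 to 119.6, and the I/M level 8.44 times (3.43 to 26.9). These intervals cover counting error only, not the spread between libraries, and are not tests.

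*Scg2* passed the lower filter only through the 3 M/M libraries and so had to differ there, and its M/M values are given as a description without a test. *Scg2* was called in I/M lenses against wild-type (edgeR log2 FC of 3.00 ± 0.48 SE, FDR = 0.00031) and against KO (2.87 ± 0.46, FDR = 0.00027). KO and wild-type lenses differed by 0.13 ± 0.76 (FDR = 0.96), with an interval of -1.498 to 1.76. Without I/M replicate 3 the I/M difference from wild-type was 2.89.

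*Scg2* is a neuroendocrine gene, and the summed retinal neuron, endothelial and macrophage markers were highest in the same M/M libraries. The summed level of 11 retinal neuron markers was 5.38 to 5.66 CPM in wild-type, 6.23 to 7.57 in I/M and 10.03 to 11.7 in M/M lenses, with 2 of the 11 at 0 in all wild-type libraries. *Gad1* (0.216 CPM on average in wild-type and 4.25 in M/M lenses) made up most of that difference, the other 10 summing to 5.28 and 6.46 CPM, and *Elavl4* went the other way (2.17 and 0.513 CPM). Photoreceptor markers (9 genes) were at 1.22 to 1.41 CPM in wild-type and 1.84 to 4.89 CPM in M/M lenses. Endothelial markers (7 genes) went from 5.76 to 8.21 CPM in wild-type through 17.7 to 24.6 in I/M to 47.6 to 55.4 CPM in M/M lenses. Macrophage markers (6 genes) went from 0.377 to 0.511 CPM in wild-type to 7.71 to 15.5 CPM in M/M lenses, and markers of pericytes and fibroblasts (5 genes) were at 73.2 to 89.3 CPM in wild-type and at 251 to 383 CPM in M/M lenses. The part of these cells in the level of *Scg2* was not tested. The summed markers of glia (4 genes) and of pigmented cells (6 genes) were not higher in M/M lenses. They were at 24.3 to 25.2 and 2.95 to 3.51 CPM, against 26.7 to 28.7 and 5.95 to 6.55 CPM in wild-type lenses. In each list 2 genes had a higher mean in M/M lenses, while 2 glia and 4 pigmented cell markers were lower. The largest rises were of *Rlbp1* (glia, 0.188 to 0.757 CPM) and *Dct* (pigmented cells, 0.194 to 0.423 CPM).

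The other 3 granins were too low for a test. *Chga* (chromogranin A, ENSMUSG00000021194, chr12:102554969-102565028, plus strand) had 4 to 14 counts per library, with 0.118, 0.105 and 0.0793 CPM in wild-type lenses and 0.187, 0.145 and 0.188 CPM in KO lenses. I/M libraries had 0.135, 0.122 and 0.202 CPM and M/M libraries 0.163, 0.0868 and 0.135 CPM. The KO and I/M values lay above those of wild-type, at 8 to 14 counts against 4 to 6. *Chgb* (chromogranin B, ENSMUSG00000027350, chr2:132781278-132795079, plus strand) had 0.0393, 0.0840 and 0.139 CPM in wild-type, 0.0187, 0.145 and 0.0564 CPM in KO, 0.121, 0.109 and 0.101 CPM in I/M and 0.213, 0.130 and 0.226 CPM in M/M lenses. Every *Chgb* value of M/M lies above those of I/M, but its lowest overlaps wild-type. *Scg3* (secretogranin III, ENSMUSG00000032181, chr9:75643189-75684056, minus strand) had 0.157, 0.0210 and 0.278 CPM in wild-type, 0.150, 0.0362 and 0.113 CPM in KO, 0.0270, 0.0851 and 0.130 CPM in I/M and 0.138, 0.0434 and 0.0790 CPM in M/M lenses, and all genotypes overlapped. A DESeq2 fit without a filter gave *Chga*, *Chgb*, *Scg3* and *Pcsk2* adjusted p-values of 0.218 or more against wild-type and gave none for *Pcsk1*. At these counts a difference was not detectable, which does not show that there was none.

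**Figure D3:**
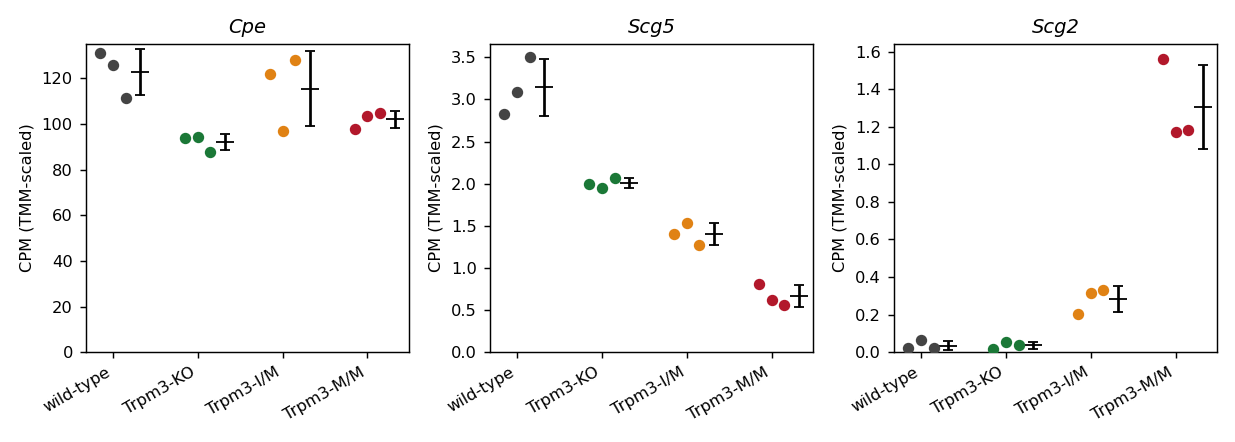
CPM (TMM-scaled) of *Cpe*, *Scg5* and *Scg2* in each library (points), with the mean ± SD of the 3 libraries per genotype (bars). *Cpe* varies within 87.9 to 131 CPM, *Scg5* steps down from 3.14 to 0.665 CPM on average, and *Scg2* is near 0 in wild-type and KO lenses and reaches 1.31 CPM on average in M/M lenses.

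Counted together in the main fit, *Gcg* and *Cpe* were the 2 members tested. Against wild-type *Gcg* was not counted, so *Cpe* was the 1 member counted there, and it was not called in any genotype. Of all genes tested, 0.568% were called in KO, 3.33% in I/M and 8.95% in M/M lenses. Between the mutants 0 of the 2 members were called, beside 4.7% of all genes. In each of I/M and M/M against KO 1 member (*Gcg*) was called, beside 3.94% and 9.78% of all genes. By unadjusted p under 0.05, of the members counted, *Cpe* passed against wild-type in KO and M/M lenses. With the lower filter, *Scg5* was called against wild-type in I/M and in M/M lenses, where 5.25% and 12.9% of all genes were called. *Scg2* was called in I/M lenses, its M/M comparisons not being counted.

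Of 13 other convertases, trimming enzymes and their inhibitor, 10 were tested. In M/M lenses 2 of them fell and 0 rose, where 8.95% of all genes were called. In KO and I/M lenses 0 were called, where 0.568% and 3.33% of all genes were. *Cpz*, a carboxypeptidase of the same family as *Cpe*, had 17.9, 16.5 and 20.7 CPM in wild-type, 10.9, 8.92 and 9.62 in I/M and 5.001, 4.37 and 4.65 in M/M lenses, a log2 FC of -1.97 ± 0.09 in the last (edgeR FDR = 1.0e-09). *Pcsk1n*, which encodes the proSAAS inhibitor of the *Pcsk1* enzyme, had 18.1, 23.1 and 18.0 CPM in wild-type, 11.7, 10.1 and 10.9 in I/M and 7.90, 7.58 and 7.60 in M/M lenses, a log2 FC of -1.36 ± 0.10 (FDR = 5.2e-08). In I/M lenses *Cpz* (-0.90) and *Pcsk1n* (-0.85) stayed under the fold threshold, and in KO lenses their differences were 0.03 and -0.14. Scaled by library size alone, *Pcsk1n* was at -0.84 in M/M lenses, below the fold threshold, while *Cpz* stayed called at -1.47 and *Pam* was called higher at 1.31, so that 1 fell and 1 rose.

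By FDR alone, 3 of the 10 were lower and 5 higher in M/M lenses, where 31.4% of all genes were lower and 31.4% higher. In I/M lenses it was 2 and 2, where 15.3% of all genes were lower and 17.3% higher, and in KO lenses 0 and 0, where 2.2% were lower and 2.16% higher. The median log2 FC of the list in M/M lenses was 0.13, beside -0.004 for all genes. The general convertases that do not need a dense-core granule were present in every genotype. Their levels are given in CPM without correction for exon length, unlike the comparison of members per kilobase above. *Furin* had 46.0 ± 2.86 CPM (SD, n = 3) in wild-type and 54.2 ± 4.77 CPM in M/M lenses, *Pcsk5* 15.2 ± 0.865 and 17.2 ± 0.267 CPM, and *Pcsk6* 12.5 ± 1.44 and 10.7 ± 1.48 CPM, none of them called. These 3, and *Pam* in the next sentence, were chosen after their values were seen. *Pam*, the enzyme that amidates peptide ends, went from 22.6 ± 0.789 to 39.3 ± 0.984 CPM in M/M lenses, a log2 difference of 0.80 that was under the fold threshold except by library size alone.

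**Figure D4:**
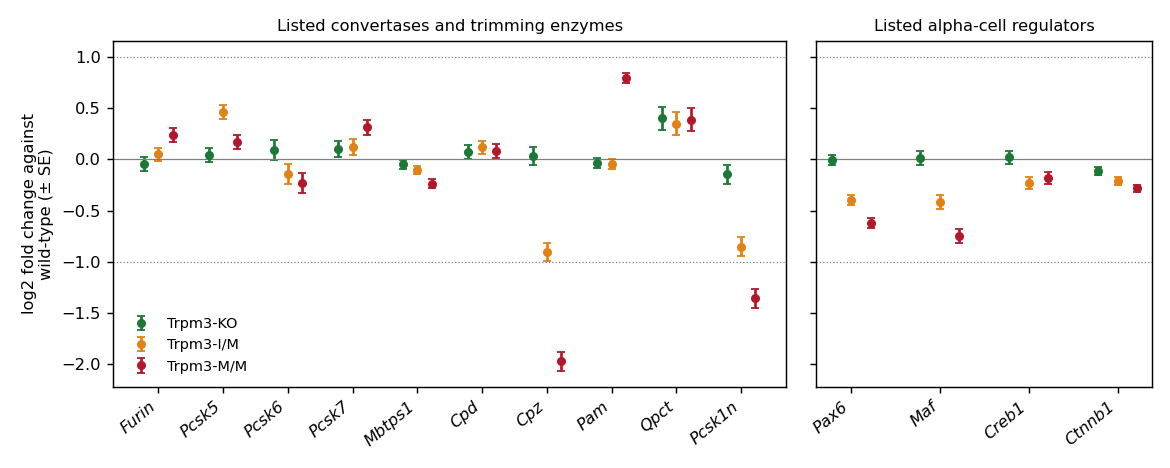
Log2 fold change against wild-type (± SE, edgeR) of the 10 tested convertase and trimming genes and 4 tested alpha-cell regulators in KO, I/M and M/M lenses, with dotted lines at an FC of 2. *Cpz* and *Pcsk1n* in M/M lenses lie past the lower line, and all 4 regulators lie below 0 in both mutants under this TMM scaling, although *Creb1* and *Ctnnb1* were above 0 in M/M lenses by library size alone.

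Of the genes listed as regulators of *Gcg* in alpha cells, 4 passed the filter in the lens, and these were lower in the mutants by less than 2-fold. Of 13 listed regulators, 4 were tested, *Pax6*, *Maf*, *Creb1* and *Ctnnb1*, of which *Pax6* and *Maf* are also regulators of lens development. None was called in any genotype. By FDR alone all 4 were lower in I/M and in M/M lenses, beside the 15.3% and 31.4% of all genes lower there, although *Creb1* and *Ctnnb1* were higher in M/M lenses by library size alone. In KO lenses 0 of the 4 passed (1 at an unadjusted p under 0.05). The FDR of *Creb1* in M/M lenses went above 0.05 without M/M replicate 1 (0.088) or 2 (0.12) or wild-type replicate 2 (0.051). The list's median log2 FC was -0.32 in I/M, -0.45 in M/M and 0.0056 in KO lenses, against -0.001, -0.004 and 0.0004 for all genes. Most of the regulators not tested in that fit were near or at 0. *Foxa2*, *Cdx2* and *Rfx6* had 0 counts in all 12 libraries. *Foxa1*, *Isl1*, *Nkx2-2*, *Pou3f4* and *Neurod1* had at most 18 counts in any library, whereas *Tcf7l2* had 180 to 389. These untested regulators were named after their values were seen. The insulin genes *Ins1* and *Ins2* had 0 counts in all 12.

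The 2 tested regulators with the largest differences, named after their values were seen, were *Maf* and *Pax6*. *Maf* had 1289 ± 95.2 CPM (SD, n = 3) in wild-type and 768 ± 78.7 CPM in M/M lenses, a log2 difference of -0.75 (edgeR FDR = 7.4e-07). *Pax6* had 85.4 ± 4.92 and 55.6 ± 1.49 CPM, a difference of -0.62 (FDR = 9.8e-08). Scaled by library size alone *Maf* and *Pax6* were at -0.24 and -0.11, and *Creb1* and *Ctnnb1* turned to 0.33 and 0.22, in a scaling whose median was 0.50.

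Of 7 genes for glucagon-family receptors and peptide inactivation, 1 was tested, the peptidase gene *Mme*, and it was not called. It passed FDR alone in KO lenses, at a log2 difference of -0.43, and in I/M lenses, at 0.20. Of the receptor genes, those of glucagon and of its nearest relative GLP-1 were near or at 0. *Gcgr*, the glucagon receptor, had 0 to 4 counts per library and *Glp1r* 0 to 3 counts, with 0 in all wild-type and KO libraries for *Glp1r*. *Gipr*, the receptor of a related gut hormone, was present in all 12 libraries, with 2.22 ± 0.503 CPM (SD, n = 3) in wild-type, 1.77 ± 0.631 in KO, 4.32 ± 0.549 in I/M and 1.49 ± 0.415 in M/M lenses. It was thus highest in I/M and not in M/M lenses, and it was not called at the lower filter, with log2 differences from wild-type of 0.95 in I/M, -0.61 in M/M and -0.33 in KO lenses. *Glp2r*, the GLP-2 receptor gene, had 9 to 48 counts per library. *Ramp2*, which modifies related receptors and is also an endothelial gene, had 10 to 17 counts in wild-type and 209 to 245 counts in M/M libraries, beside the endothelial markers above, and its relation to them was not tested. These 5 genes were named after their values were seen.

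Of 30 genes of the granule and regulated exocytosis, 6 were tested. One fell in M/M lenses, where 8.95% of all genes were called. It was *Syt7*, a calcium sensor of exocytosis, with 6.03 ± 0.663 CPM (SD, n = 3) in wild-type, 3.33 ± 0.14 in I/M and 2.93 ± 0.685 in M/M lenses. Its log2 FC in M/M lenses was -1.05 ± 0.14 (edgeR FDR = 1.8e-05), and -1.07 ± 0.14 (FDR = 1.1e-05) at the lower filter, which all 12 libraries reached. By library size alone it was -0.54 and not called, while *Hid1* was called higher (1.33). In the first fit it was under the fold threshold without wild-type replicate 2 (-0.96), M/M replicate 2 (-0.94) or M/M replicate 3 (-0.92). By FDR alone 1 of the 6 was higher and 3 were lower in M/M lenses, where 31.4% of all genes were higher and 31.4% lower, and the list's median was -0.07, beside -0.004 for all genes.

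Of 33 other peptide precursors, 2 passed the filter, *Cck* and *Sct*, both only through the 3 M/M libraries, so they had to be high there and no count is drawn from them. *Cck*, the cholecystokinin precursor, had 3, 2 and 0 counts in wild-type libraries and 11, 12 and 10 in KO libraries. It had 67, 1 and 26 counts in I/M and 574, 802 and 837 in M/M libraries. Its M/M level was 253 times that of wild-type by summed counts (95% exact binomial counting interval 108 to 779). That interval too covers counting error only, not the spread between libraries, and is not a test. The call in I/M lenses (edgeR log2 FC of 3.57 ± 1.19 SE, FDR = 0.035) was lost without I/M replicate 1 (2.36, FDR = 0.14) or replicate 3 (FDR = 0.054) and without wild-type replicate 1 (FDR = 0.072), 2 (FDR = 0.082) or 3 (FDR = 0.10). *Sct*, the secretin precursor, of the same peptide family as glucagon, had 2.93, 2.48 and 2.64 CPM in wild-type and 7.93, 6.50 and 7.92 CPM in M/M lenses. At the lower filter, which it reached in all 12 libraries, its log2 FC in M/M lenses was 1.45 ± 0.13 (FDR = 3.8e-07), and in KO and I/M lenses the *Sct* differences were -0.08 and 0.03.

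At the lower filter 8 of the 33 precursors passed, 4 of them (*Cck*, *Penk*, *Agt* and *Gal*) only through the M/M libraries, and these are described without a test. The precursors described next were named after their values were seen. *Penk*, the enkephalin precursor, had 1, 1 and 7 counts in wild-type and 1092, 635 and 231 counts in M/M libraries, with at most 8 counts in any KO or I/M library. *Agt* (angiotensinogen) had 1 to 3 counts in wild-type and 150 to 297 in M/M libraries, and *Gal* (galanin) 0 to 4 and 67 to 202 counts. *Nmb* (neuromedin B), which reached the lower filter in all 12 libraries, had 1.37 ± 0.184 CPM (SD, n = 3) in wild-type and 3.57 ± 0.299 CPM in M/M lenses, a log2 FC of 1.36 ± 0.13 (edgeR FDR = 8.3e-07). *Calca*, the calcitonin precursor, passed only through the 3 I/M libraries and was lower in M/M than in wild-type lenses, by FDR alone, at a log2 difference of -0.82 (FDR = 0.003).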

How the data were processed

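Lens RNA was measured by poly-A RNA-seq in 12 libraries, 3 per genotype, grouped by the genotype and number in the sample titles. The authors aligned and counted reads with DRAGEN against an Ensembl mouse primary assembly (mm10) and deposited estimated counts, one column for each library and without normalization, of which 88.4% of values were whole. Tests had been planned for whole counts, so values were rounded. A second deposited table holds the authors' counts, CPM, log2 fold changes and p-values for selected genes and was not used. In the 55774 entries, 168 identifiers were repeated with equal values and used once.

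Following the study's thresholds, genes with CPM ≥ 5 in at least 3 libraries (8984) were fitted in edgeR 4.0.16 (R 4.3.3), with TMM scaling, 1 quasi-likelihood model for all 12 libraries, and Benjamini–Hochberg adjustment over all genes. A gene was called at FC ≥ 2 and FDR ≤ 0.05. *Scg5*, *Scg2* and some listed genes were tested in the same fit at CPM ≥ 1 (12638 genes), chosen for them after their levels were seen. A gene that passed a filter only through 1 genotype was given in comparisons of that genotype as a description and left out of the counts of members, a rule added after seeing the data (the list counts under other settings still hold such genes). CPM values use TMM factors, and log2 CPM for correlations a prior count of 2. Alternatives were other scalings, filters and thresholds, DESeq2 1.42.0, a replicate block and leaving out each library. In simulated counts for M/M against wild-type, 100% of genes raised 2-fold reached FDR ≤ 0.05 with 8984 genes and 100% with 12638. The fold threshold was not applied there, and no 2-fold fall was simulated. The same spread was set for every gene, below that of *Gcg* in wild-type lenses, so the power for such uneven genes is not given by it. Coordinates are from a GENCODE annotation (GRCm38) and promoters from RefSeq. Python 3.11.15 was used for tables and figures.

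The 9 genes and all gene lists were chosen with earlier results of these data known. Named genes were the 9 members, the genes of each list called against wild-type (at most the 4 with the largest log2 fold change), the nearest patterns to *Gcg* (5) and *Cpe* (2) and *Trpm3*, other names being marked in the text. Some genes of the regulator and granule lists are not reported here, and the counts and medians of both lists are given without them.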

Additional observations from a re-analysis of the deposited data

Results flagged for a closer look

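The effect relative to wild-type differed between the altered genotypes for 3 genes, by the direct comparison of those genotypes in the edgeR quasi-likelihood fit. A difference was taken at an FC of at least 2 and an FDR of at most 0.05. *Cpe* (0.33) and *Scg5* (-0.52) in I/M against KO lenses passed FDR alone and are left out. In the main fit 3.94% of all genes were called in I/M and 9.78% in M/M against KO lenses. *Gcg* was lower in I/M than in KO lenses (log2 FC of -1.52, FDR = 0.00058) and in M/M than in KO lenses (-1.70, FDR = 8.2e-05), with no overlap of libraries in either.

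*Scg5* was lower in M/M than in I/M lenses (log2 FC of -1.10, FDR = 5.5e-05) and than in KO lenses (-1.62, FDR = 6.7e-07). It and *Scg2* were fitted at the lower filter. There 7.98% of all genes were called between the mutants, 13.8% in M/M and 6.16% in I/M against KO lenses. *Scg2* was higher in I/M than in KO lenses by 2.87 (FDR = 0.00027). Its comparisons with M/M lenses are left out here, since it passed the filter only through the M/M libraries. The summed endothelial markers were also higher in I/M (17.7 to 24.6 CPM) than in KO libraries (6.03 to 6.66 CPM), and their part in this difference was not tested.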

How the results depend on the processing

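Under the planned scalings (library size only, upper-quartile, TMM without crystallin genes, DESeq2), in fits of the compared genotypes only, and with each library left out, the calls of *Gcg* in I/M and M/M against KO lenses were kept, and *Cpe* was not called in any comparison. The replicate numbers share a label only, since same-numbered libraries deviated together with r from -0.26 to 0.15 and 2 of 12 libraries correlated best with their own number. A fit with the replicate block gave 0 members called in each comparison with wild-type, where *Cpe* alone was counted. It gave 0 between the mutants and 1 in each comparison of a mutant with KO lenses, as did the fit without the block.

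Library size alone moved the median of all genes by 0.50 (log2) in M/M lenses and turned the direction of 4 uncalled differences of members, namely *Cpe* in I/M (0.11) and M/M (0.24) against wild-type and between the mutants (0.13), and *Gcg* between the mutants (0.13). It also took *Scg5* under the fold threshold in I/M lenses (-0.96) and between the mutants (-0.77). Mean *Gcg* levels became 26.3 CPM in KO and 11.1 CPM in M/M lenses by library size, and 152, 69.1, 24.0 and 21.2 CPM in wild-type, KO, I/M and M/M lenses without crystallin genes in the library sizes. The last scaling changes the unit and left the ratios to wild-type at 2.2, 6.32 and 7.17.

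Members called changed with the filter by construction. With CPM ≥ 1 or with no filter, *Scg5* and *Scg2* gave 2 members called in I/M lenses against wild-type, *Scg5* gave 1 in M/M lenses and 1 between the mutants, and there were 2 in I/M against KO (*Gcg* and *Scg2*) and 2 in M/M against KO lenses (*Gcg* and *Scg5*), with *Scg2* in M/M lenses not counted. Without a fold threshold, *Cpe* gave 1 member in KO and 1 in M/M lenses against wild-type and made 2 in I/M against KO.

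Of all genes, 9.64% were called against wild-type in at least 1 genotype and in either direction, 14.1% at CPM ≥ 1, 12% with no filter and 68.5% with no fold threshold, and the list counts below grow with these settings too. Several listed genes passed the lower filter through 1 genotype alone, so nothing is read from the growth. Counted in the same way, the receptor list went from 0 to 1 at CPM ≥ 1, 2 with no filter and 1 with no fold threshold. The convertase list went from 2 to 4, 4 and 8, the granule list from 1 to 8, 15 and 4, and the precursor list from 2 to 6 and 14. The first 2 precursors, *Cck* and *Sct*, passed the main filter only through the M/M libraries, so nothing is read from that count either. The regulator list went from 0 to 1 with no filter and 4 with no fold threshold. The granule list also gave 0 genes with the compared genotypes only, and 0 to 1 with a library left out. The fit without any filter estimates its spread together with genes of a few counts, and its calls were not used.

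With a library left out, the difference of *Scg2* between KO and wild-type lenses ran from -0.24 to 0.85 and was -0.14 without wild-type replicate 1 and -0.13 without wild-type replicate 3. That of *Cpe* between I/M and wild-type lenses ran from -0.17 to 0.0196, and that of *Gcg* between the mutants from -0.30 to 0.0358. *Scg2* could not be fitted at CPM ≥ 1 without an M/M library, nor in fits of compared genotypes that leave out M/M. The settings that combine CPM ≥ 1 with another choice, and DESeq2 with no filter, were chosen after seeing the data. Low counts limit *Pcsk1*, *Pcsk2*, *Scg3*, *Chga* and *Chgb*, for which a change below several-fold was not detectable.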
